A study of Mus musculus with 9 samples.

Results

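Hcar2, Car4 and Angptl2 are 3 genes selected on their large rise in expression from control to arsenic trioxide (ATO) in leukemia cells of a mouse model of acute promyelocytic leukemia (APL). They were found by symbol among the 24364 named genes of the deposited tables, and all 3 passed the filter on low values that left 12101 genes for testing. APL is driven by the fusion protein PML/RARα. The cells came from hMRP8-PML/RARα transgenic mice, in which a promoter of myeloid cells drives the fusion gene, and they carried GFP from the retroviral vector MigR1. They were expanded by transplantation in syngeneic mice of strain FVB N/J, whose own blood cells and stroma remained, and GFP-positive bone marrow cells were sorted for polyA RNA sequencing. The control group had 3 libraries from mice given neither drug. The ATRA group had 3 libraries from mice given all-trans retinoic acid at 10 mg/kg, and the ATO group had 3 libraries from mice given arsenic trioxide at 4 mg/kg, each by daily intraperitoneal injection for 6 days. Whether the controls received the solvent is not given in the sources used here, so drug and injection cannot be told apart.

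The genes encode a receptor, an enzyme and a secreted ligand. Hcar2 encodes a Gi-coupled surface receptor of neutrophils, macrophages and fat cells that is activated by niacin and by the ketone body beta-hydroxybutyrate, and its activation in immune cells is known to release prostaglandins. Car4 encodes a carbonic anhydrase held on the outer cell surface by a lipid anchor, where it interconverts CO2 and bicarbonate. Angptl2 encodes a secreted angiopoietin-like glycoprotein with a fibrinogen-like domain, which is known to bind integrins and, in mouse, the inhibitory receptor PirB of myeloid cells.

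Total reads on named genes ran from 12192491 to 25511738 per library. The libraries are described by the submitters as biological replicates, but the labels do not tie each to an animal, so the p-values measure the spread between these samples. Genes of promyelocytes (8, with Mpo and Elane) summed to 193270 scaled reads in control 2 and to between 364510 and 634880 in the other libraries. Scaled reads are reads divided by a size factor per library that corrects for depth. Markers of macrophages, of endothelium and stroma, and of lymphoid and red cells were also present and summed lower in every drug library than in any control. The summed level of 15 macrophage markers ran from 14323 to 35478 scaled reads in controls, whereas ATRA libraries had 6410 to 8964 and ATO libraries 7764 to 12125. For 12 endothelial and stromal markers the ranges were 1469 to 1957, 636 to 639 and 571 to 672. In bulk samples, fewer cells of a type and less RNA per cell cannot be told apart.

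The upstream sequences of the members that could be matched to the RefSeq promoter table (2 of 3, build GRCm38.p6) are shown because these genes were high in the same ATO libraries. Hcar2 is named only. Each line gives the 250 bases before the annotated start on the plus strand, 5′ to 3′, and capitals mark a match to a searched motif.
Car4, chr11:84957504-84957753: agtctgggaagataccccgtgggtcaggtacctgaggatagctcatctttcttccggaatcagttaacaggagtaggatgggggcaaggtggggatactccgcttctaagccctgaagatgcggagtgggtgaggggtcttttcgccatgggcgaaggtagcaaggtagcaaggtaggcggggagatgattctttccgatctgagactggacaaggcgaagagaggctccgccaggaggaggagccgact
Angptl2, chr2:33215711-33215960: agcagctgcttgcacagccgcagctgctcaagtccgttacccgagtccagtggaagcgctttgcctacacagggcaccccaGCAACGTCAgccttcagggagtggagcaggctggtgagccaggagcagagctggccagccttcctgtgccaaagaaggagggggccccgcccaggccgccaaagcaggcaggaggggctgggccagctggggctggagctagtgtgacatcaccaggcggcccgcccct

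The windows searched also took in 50 bases after the start, on both strands. The Angptl2 window held 1 match to the antioxidant element letters TGACNNNGC, present in 12.4% of 32851 promoters of the same length. The Car4 window held 1 match to the TATA box letters TATAAA (13.6% of promoters), within the 50 bases after the start and so not printed. Neither held the AP-1 letters TGANTCA (7.81%), the heat shock element core GAANNTTC (7.86%), the C/EBP letters TTNNGCAA (10.8%), the PU.1 and ETS letters GAGGAA (28.3%) or the nuclear receptor repeat unit AGGTCA (16.3%). Each motif was searched only as the letters given, with N for any base, so other forms of these sites were not looked for. The 2 members thus shared no searched motif in these windows. GC content of the printed stretches was 56.4% for Car4 and 66.8% for Angptl2, against a median of 52.4% over all promoters.

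Hcar2 was low in controls, intermediate with ATRA and high with ATO. It lies on the minus strand of chromosome 5, from 124313581 to 124315518 in mm9 (GENCODE vM1, where it is named Niacr1), as 1 exon of 1938 bases. Its level was 50.8, 71.1 and 50.3 scaled reads in controls 1 to 3. It was 86.3, 156 and 196 scaled reads in ATRA 1 to 3. It was 367, 694 and 530 scaled reads in ATO 1 to 3. No library of a group overlapped another group, and ATO 2 was the highest of all. The lowest ATO library stood 5.17 times above the highest control and 1.87 times above the highest ATRA library. These values rested on 52 to 70 reads per library in the control group, 90 to 211 in the ATRA group and 323 to 956 in the ATO group.

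Car4 was raised to a similar height by both drugs, except in ATRA 3. It lies on the plus strand of chromosome 11 (84771288 to 84779546) with 1966 exonic bases. Controls 1 to 3 had 818, 898 and 887 scaled reads. ATRA 1 to 3 had 3596, 3132 and 1413 scaled reads. ATO 1 to 3 had 2921, 3815 and 4191 scaled reads. All 6 treated libraries lay above the controls, while ATRA 1 and ATRA 2 lay within the range of the ATO libraries. ATRA 3 stood apart below them, yet still 1.57 times above the highest control.

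Angptl2 was high with ATO alone among these groups. It lies on the plus strand of chromosome 2 (33071589 to 33103237), inside Ralgps1 on the minus strand, with 6286 exonic bases, 0 of which are exonic in Ralgps1. Controls 1 to 3 had 74.3, 35.6 and 141 scaled reads. ATRA 1 to 3 had 75.7, 108 and 154 scaled reads. ATO 1 to 3 had 361, 495 and 290 scaled reads. Control and ATRA libraries overlapped. The lowest ATO library, ATO 3, stood 2.06 times above the highest control, control 3, and 1.89 times above the highest ATRA library.

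**Figure D1:**
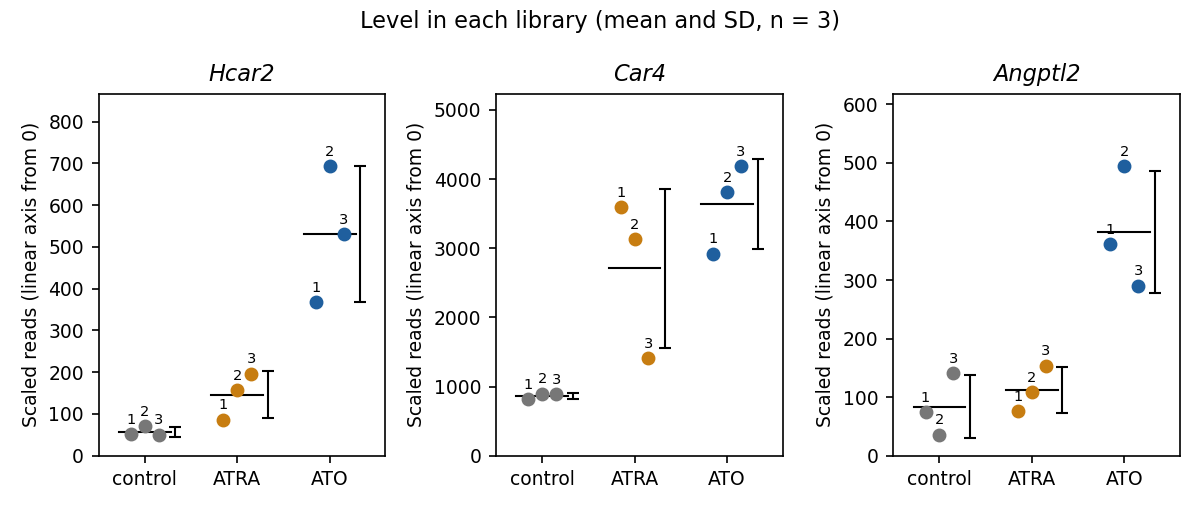
Scaled reads (linear axes from 0) of Hcar2, Car4 and Angptl2 in each of 9 libraries, with points numbered by library, the group mean as a line and its SD as a bar (n = 3). The ATO libraries lie above all controls for each gene, from 367 to 694 for Hcar2, and ATRA 3 is the lowest treated library for Car4 at 1413.

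The ATO rise is what the 3 genes were chosen for, so it is given as a description, with no test. On the log2 scale Hcar2 differed from control by 3.17 (SE 0.32), from a mean of 57.4 ± 11.9 to 530 ± 163 scaled reads (SD, n = 3 each). Angptl2 differed by 2.36 (SE 0.43), from 83.6 ± 53.4 to 382 ± 104. Car4 differed by 2.05 (SE 0.29), from 867 ± 43.4 to 3642 ± 652. Among the 12101 tested genes, ordered by log2 rise with ATO, Hcar2 stood at place 9, Angptl2 at 21 and Car4 at 35. Of all tested genes 6.13% were called higher and 8.55% lower with ATO, where a call is a limma adjusted p under 0.05 with a fold change over 1.5.

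The comparison of ATRA with control asked whether the members also responded to the other drug used against APL. It was not used to choose them, but it shares the control libraries with the comparison that was. Car4 rose from 867 ± 43.4 to 2714 ± 1150 scaled reads (SD, n = 3 each), a log2 change of 1.54 (SE 0.29, limma adjusted p = 0.00653). Hcar2 rose from 57.4 ± 11.9 to 146 ± 55.7, a log2 change of 1.28 (SE 0.32, limma adjusted p = 0.0351). All 3 ATRA libraries were above all 3 controls for both genes. Angptl2 was 112 ± 39.1 with ATRA against 83.6 ± 53.4, a log2 difference of 0.58 that was not called (SE 0.43, limma adjusted p = 0.484). Its 95% interval, from -0.34 to 1.5, left room for a fall as well as for a rise to more than the Hcar2 estimate. Called higher were 2 of the 3 members, where 1.34% of all tested genes were, and 5.6% were called in either direction. Those shares are over all genes. They are no expected rate for genes chosen for a rise with ATO against the same controls.

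The Hcar2 call with ATRA was lost without control 1 (limma adjusted p = 0.0772), control 3 (0.207), ATRA 2 (0.13) or ATRA 3 (0.126), and the Car4 call without control 3 (0.0516). The Angptl2 difference was 0.081 without control 2 and 1.06 without control 3, the controls with its lowest and highest level.

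Set side by side on the log2 scale, the ATRA change was 74.8% of the ATO change for Car4, 40.4% for Hcar2 and 24.5% for Angptl2. The direct difference of ATO from ATRA, also a description because the ATO libraries chose the genes, was 1.89 (SE 0.32) for Hcar2, 1.79 (SE 0.43) for Angptl2 and 0.52 (SE 0.29) for Car4. For Hcar2 and Angptl2 all 3 ATO libraries exceeded all 3 ATRA libraries. For Car4 this held for 7 of the 9 pairs of an ATO and an ATRA library.

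**Figure D2:**
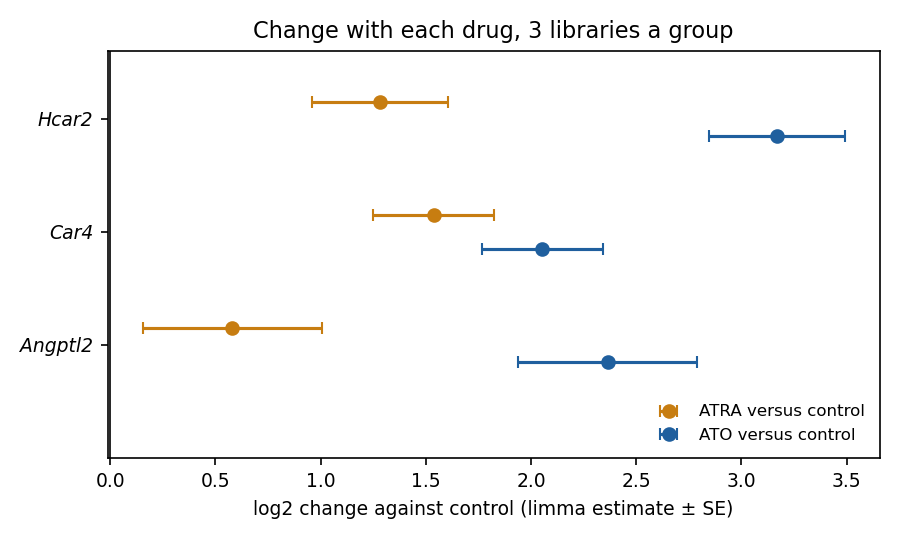
Log2 change against control (horizontal axis) of Hcar2, Car4 and Angptl2 with ATRA (orange) and with ATO (blue), as limma estimates with bars of 1 SE, 3 libraries a group. The drug estimates lie closest for Car4 (1.54 and 2.05) and farthest apart for Hcar2 (1.28 and 3.17).

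To compare the genes with each other, levels were set per kilobase of exon and per library total (RPKM). In controls Car4 stood at 27.4 ± 2.75 RPKM, Hcar2 at 1.84 ± 0.395 and Angptl2 at 0.836 ± 0.572 (SD, n = 3). With ATRA they stood at 81.6 ± 34.4, 4.47 ± 1.72 and 1.06 ± 0.372 RPKM. With ATO they reached 99.2 ± 11.2, 14.7 ± 4.25 and 3.30 ± 0.972 RPKM. The order of the levels was therefore Car4, Hcar2, Angptl2 in each group, with the exon lengths of the annotation used.

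The spread between libraries differed by gene and group. In controls the SD was 5.0% of the mean for Car4, 20.7% for Hcar2 and 63.8% for Angptl2, whereas read counting alone would give about 3.34%, 13.1% and 12.7%. With ATRA the SD was 42.4% for Car4, 38.1% for Hcar2 and 34.8% for Angptl2, against 2.02%, 8.55% and 9.57% from counting. Within the ATRA group the libraries also ranked differently. ATRA 3 had the highest Hcar2 and Angptl2 and the lowest Car4, and ATRA 1 the reverse. With ATO, library 2 was highest for Hcar2 and Angptl2, and library 3 for Car4.

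Marker levels of other cells are given beside these values by library. Summed macrophage markers were 35478, 14323 and 29188 scaled reads in controls 1 to 3, and control 2 was lowest for Angptl2 too. The drug libraries, with less of these markers than every control, had more Hcar2 and Car4 than every control. Of 15 macrophage markers measured, 14 were tested, and with ATO 11 were called lower and 1, Adgre1, which encodes the surface marker F4/80, higher. With ATRA 9 were called lower and 0 higher. Over all tested genes 8.55% were called lower and 6.13% higher with ATO, and 4.26% and 1.34% with ATRA. C1qa, C1qb and C1qc were among those lower with each drug. Mature neutrophil markers (14 genes) were also summed, and S100a8 and S100a9 had the highest group means of them. The sums were 372190, 377020 and 189700 scaled reads in ATRA 1 to 3, with ATRA 3 lowest as for Car4. They were 334890, 387570 and 582450 in ATO 1 to 3, the same order as for Car4. They were 232890, 616420 and 222370 in controls 1 to 3, where Car4 was nearly level. Marco was at 0 in all controls and ATRA libraries, and no other marker of the macrophage and neutrophil lists was at 0 throughout a group. The part of these cells in the results was not tested.

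The genes whose pattern over the 9 libraries was most like that of each member were found by the root mean square (RMS) difference of gene-centred log2 levels, among 9238 genes with a mean of at least 100 scaled reads. For Hcar2 they were Rfx2, a transcription factor gene (RMS 0.55), Cxcl10, a chemokine gene (0.59), and Slc39a2, a zinc importer gene (0.64). For Car4 they were Hdc, the histidine decarboxylase gene (0.32), Ankrd63, an ankyrin repeat gene (0.34), and Mogat2, an acyltransferase gene of triglyceride synthesis (0.34). For Angptl2 they were again Rfx2 (0.39), then Lmna, the lamin A/C gene (0.40), and Tppp3, a gene of the tubulin polymerization-promoting family (0.52). Between the members the RMS was 0.72 for Hcar2 and Angptl2, 0.86 for Hcar2 and Car4 and 0.95 for Car4 and Angptl2. The genes above were picked as the closest of 9238, so larger values between members say little. Because likeness was measured on the same libraries, it is a description.

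The values of these genes show what the likeness consists of. Rfx2 had 43.0, 39.6 and 57.5 scaled reads in controls 1 to 3. It had 58.5, 72.9 and 89.3 in ATRA 1 to 3 and 215, 366 and 143 in ATO 1 to 3, so it shared with Angptl2 the order ATO 2, ATO 1, ATO 3 and the small step with ATRA. Hdc had 250, 309 and 283 scaled reads in controls 1 to 3. It had 887, 616 and 482 in ATRA 1 to 3, with ATRA 3 lowest as for Car4, and 1184, 1074 and 925 in ATO 1 to 3. Lmna and Tppp3 had log2 differences of 0.26 and 1.59 with ATRA, where Angptl2 had 0.58.

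**Figure D3:**
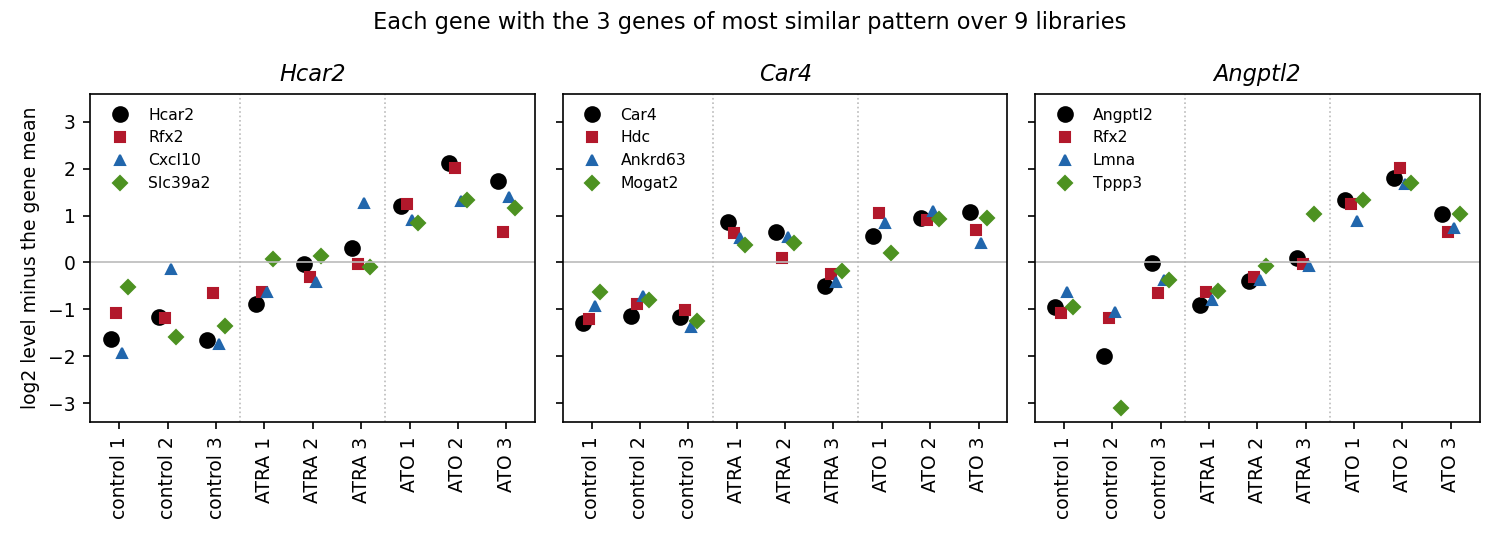
Log2 level minus the gene's mean over 9 libraries (vertical axis) for each member (black circles) and the 3 genes most like it, with dotted lines between the groups. ATRA 3 lies lowest of the ATRA libraries for Car4, Hdc, Ankrd63 and Mogat2, while Angptl2 and Rfx2 rise above 1 only in ATO libraries.

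Other receptors for metabolites and protons were called in both directions. Besides Hcar2, 7 of the 14 other genes of this list were tested, and with ATO 1 was called higher and 2 lower, against 6.13% and 8.55% of all tested genes. Their median log2 difference was -0.63 with ATO and -0.52 with ATRA, whereas that of all tested genes was -0.0060 and -0.0058. Ffar2, a receptor of short-chain fatty acids on neutrophils, rose from 1687 ± 261 to 3577 ± 862 scaled reads with ATO (log2 1.07, SE 0.20, limma adjusted p = 0.00544), and had 2614 ± 122 with ATRA (log2 0.64, limma adjusted p = 0.0824). P2ry14, a receptor of UDP-sugars, was called lower with both drugs, at 31.2 scaled reads in controls, 3.80 with ATO and 1.88 with ATRA. It passed the filter on low values through the 3 controls alone, so a fall was the only call it could give. Gpr65, a proton-sensing receptor, fell with ATO (log2 -1.26, limma adjusted p = 0.0363), a call lost without control 3, ATRA 2, ATO 1 or ATO 2 (adjusted p up to 0.185) or with only the 2 groups fitted (0.0562). With ATRA P2ry14 was the only tested receptor of the list called lower, against 4.26% of all genes, and Hcar2 the only one higher. Hcar1, the lactate receptor gene and nearest neighbor of Hcar2 at 11226 bases, had 12 reads in all 9 libraries together.

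Of 16 tested genes of prostanoid output downstream of the niacin receptor, 1 was called higher and 2 lower with ATO, and 0 higher and 1 lower with ATRA, with medians of 0.10 and 0.05. Of all tested genes 6.13% and 8.55% were called with ATO and 1.34% and 4.26% with ATRA. Ptgs2, the inducible cyclooxygenase gene, rose with ATO from 3.37 ± 5.02 to 20.5 ± 7.04 scaled reads (log2 3.39, SE 0.86, limma adjusted p = 0.0247). It passed the filter through 3 ATO libraries and 0 controls, so against control a rise was the call it could give. The log2 value was 2.41 without control 3 and 4.55 without control 2, and 1.72 with a pseudocount of 5, and the call was lost without control 3 or any of the ATO libraries (adjusted p up to 0.127). Ptges, a prostaglandin E synthase gene, fell from 212 to 104 scaled reads with ATO and to 108 with ATRA (limma adjusted p = 0.0193 and 0.0305). The ATO call was lost without control 3 or ATO 2. The ATRA call was lost without control 1, control 3, ATO 2 or any ATRA library (adjusted p up to 0.21), at a mean of at least 50 (0.052) and with only the 2 groups fitted (0.0609). Hpgds, the hematopoietic prostaglandin D synthase gene, was called lower with ATO, at 13.5 scaled reads in controls and 0.894 with ATO. It too passed the filter through the controls alone, so only a fall could be called, and the call was lost without ATO 2 (limma adjusted p = 0.0721) or with a pseudocount of 0.1 (0.0546). Gnai2, which encodes the main Gi subunit of leukocytes, had 19922 scaled reads in controls, 20584 with ATRA and 21980 with ATO and was not called (limma adjusted p = 0.559 with ATO). Of 6 tested genes of ketone body metabolism, which makes or uses the ligand of the receptor, limma called 0 with either drug (medians 0.15 and 0.20). Those most expressed in controls were Aacs, with 2352 scaled reads in controls and 2811 with ATO, and Oxct1, with 2136 and 1899.

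No carbonic anhydrase gene other than Car4 was called. Of the 15 others 9 were tested, with medians of -0.13 for ATO and -0.47 for ATRA. Over all tested genes 14.7% were called in either direction with ATO and 5.6% with ATRA. With only 9 genes, the absence of a call therefore says little about the family. The most expressed in controls were Car13, a cytosolic form, with 166 scaled reads in controls, 157 with ATRA and 151 with ATO, and Car9, a transmembrane form known for its induction by hypoxia, with 132, 123 and 119. Car15, another lipid-anchored form in mouse, had 8.31 scaled reads in controls against 18.9 with ATRA and 19.6 with ATO (limma adjusted p = 0.115 and 0.0578). It reached the filter's minimum in 3 ATRA libraries, 3 ATO libraries and 0 controls, so a rise was the call it could give. Car2, an erythroid and osteoclast form, had 40.2, 19.4 and 22.1, with limma adjusted p = 0.255 and 0.347.

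Transporters of acid and bicarbonate, which work beside carbonic anhydrases, had 3 of 14 tested genes called higher and 0 lower with ATO, and 2 higher and 2 lower with ATRA (medians 0.11 and 0.12). The shares over all tested genes were 6.13% and 8.55% with ATO and 1.34% and 4.26% with ATRA. Slc16a3, the lactate exporter gene of glycolytic cells, rose with ATO from 5264 ± 1349 to 10429 ± 2269 scaled reads (log2 0.99, SE 0.21, limma adjusted p = 0.0121), a call lost without control 3 (0.0858) or ATO 2 (0.0544). Slc26a6, an anion exchanger gene, rose with both drugs, from 183 to 315 scaled reads with ATRA and to 288 with ATO (limma adjusted p = 0.0308 and 0.0416). Slc4a5, a bicarbonate cotransporter gene, also rose with both, from 638 to 1131 with ATRA and 1023 with ATO (limma adjusted p = 0.0332 and 0.0423). The Slc4a5 calls were both lost without control 1, control 3, ATRA 1, ATRA 2 or ATO 2, that with ATRA also without ATRA 3, and that with ATO also without ATO 1 or ATO 3 (limma adjusted p up to 0.215 and 0.202). The Slc26a6 calls were both lost without control 2, control 3, ATRA 1, ATRA 2 or ATO 2, and that with ATO also without ATO 3 (up to 0.177 and 0.168). Scaling to library totals or fitting only the 2 groups also ended both ATO calls (adjusted p from 0.077 to 0.108), edgeR that of Slc4a5 (0.0579) and removal of the length trend that of Slc26a6 (0.0755). A mean of at least 50 ended both ATRA calls (0.0548 and 0.0502), and fitting only the 2 groups that of Slc4a5 (0.054). Slc4a1 and Aqp1, genes of red cell membrane proteins, fell with ATRA from 27.2 and 43.4 scaled reads to 2.23 and 2.51 (limma adjusted p = 0.0207 and 0.0486), and these calls were lost without any control (up to 0.117 and 0.203). They were also lost without ATRA 2 or ATRA 3, and that of Aqp1 without ATRA 1, with a pseudocount of 0.1 (0.146) and with library totals (0.0529). Both genes reached the filter's minimum in 3 controls and 0 ATRA libraries, so a fall was the call they could give.

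The ligands related to Angptl2 were few in these cells. Of 8 other angiopoietin and angiopoietin-like genes measured, 3 were tested, and limma called 0 with either drug (medians 0.54 with ATO and 0.27 with ATRA). Calls in either direction covered 14.7% of all tested genes with ATO and 5.6% with ATRA, so for 3 genes this says little. Angptl4, an inhibitor of lipoprotein lipase, had 401 ± 177 scaled reads without drug, 462 ± 78.3 with ATRA and 673 ± 125 with ATO (limma adjusted p = 0.0615 with ATO). Angptl6 had 31.2, 46.3 and 43.9 scaled reads.

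Receptors and partners of these ligands had 9 tested genes, of which 0 were called higher and 2 lower with each drug (medians -0.34 with ATO and -0.23 with ATRA), where 8.55% and 4.26% of all tested genes were called lower. Pirb, the mouse receptor of Angptl2 named above, fell from 882 ± 52.5 scaled reads to 378 ± 124 with ATRA (log2 -1.27, SE 0.26, limma adjusted p = 0.0107) and 391 ± 110 with ATO (log2 -1.21, SE 0.26, limma adjusted p = 0.0119). The calls were lost without control 3 (0.0928 and 0.0819), and with ATRA also without ATRA 1 (0.0565). Itgb3, an integrin gene of platelets and macrophages, fell from 279 to 85.7 scaled reads with ATRA and 75.5 with ATO (limma adjusted p = 0.00529 and 0.00309). Macrophage markers were lower in the same libraries, and their part was not tested. Itga5 and Itgb1, whose products form an integrin that binds the human ligand, had 1206 and 4440 scaled reads in controls and were not called with ATO (limma adjusted p = 0.198 and 0.249). Of 3 tested genes of proteases that process such ligands (medians 0.16 and 0.01), Bmp1 was called lower with both drugs, at 25.1 scaled reads in controls, 0.930 with ATRA and 0.694 with ATO. It passed the filter through the controls alone, so only a fall could be called.

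**Figure D4:**
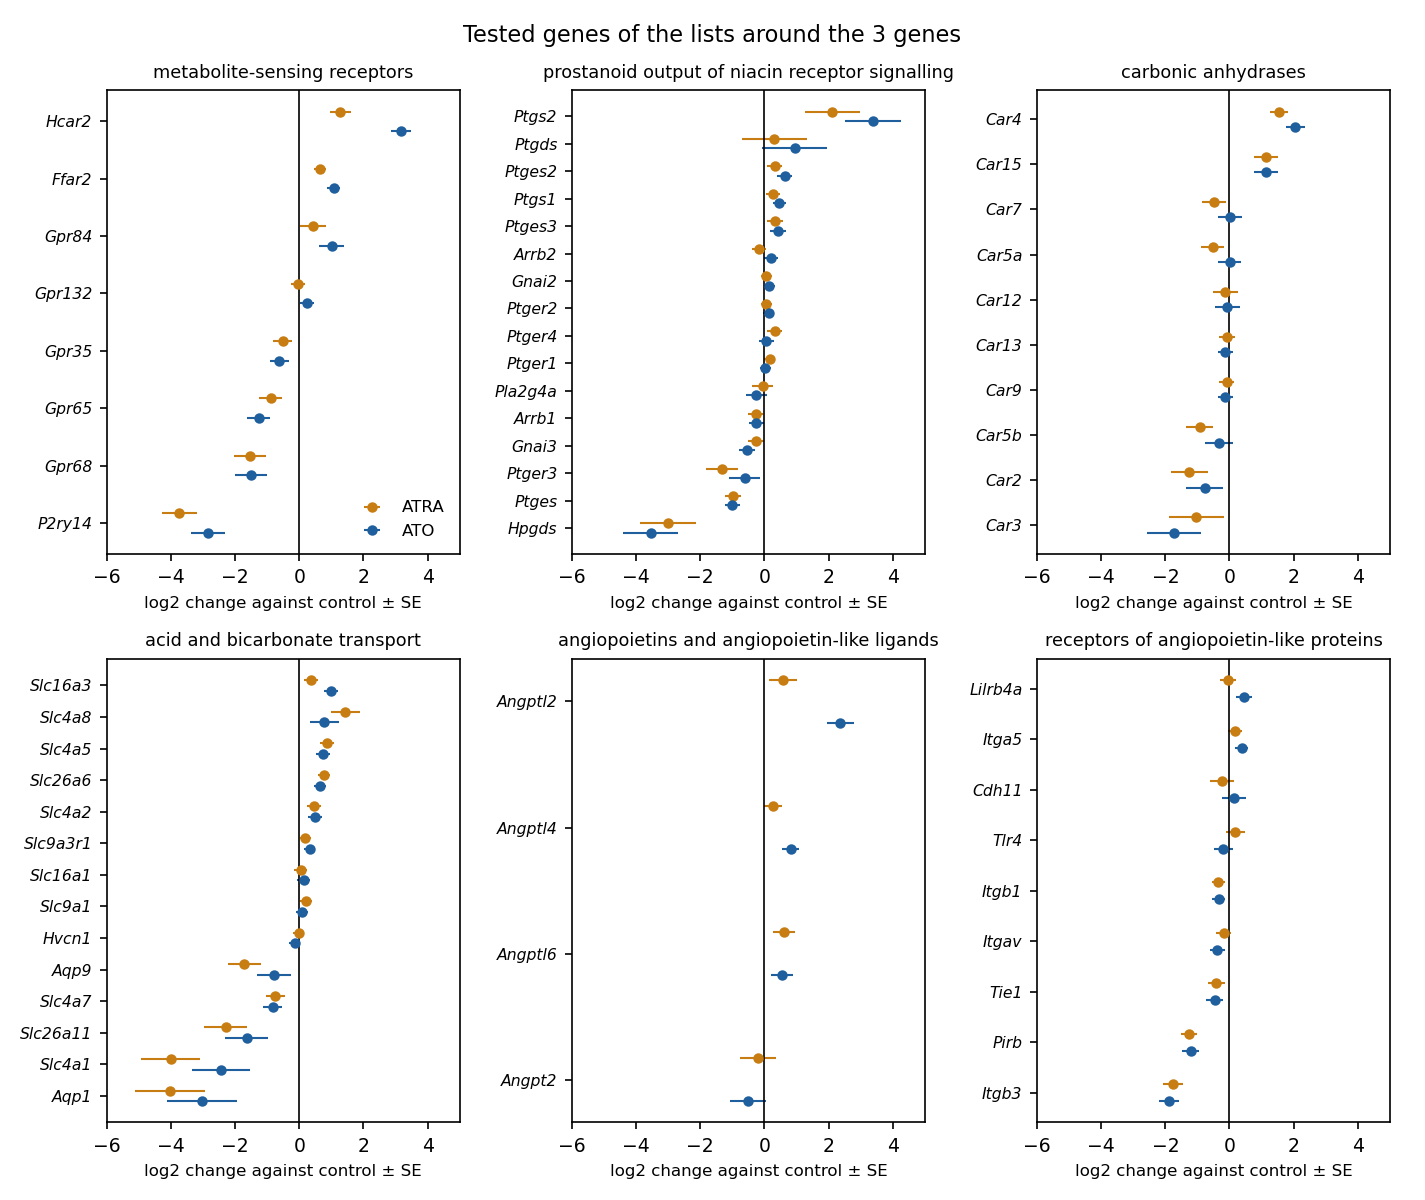
Log2 change against control with bars of 1 SE for the tested genes of 6 lists, with ATRA in orange and ATO in blue. Car4 lies highest of the carbonic anhydrases and Angptl2 highest of its ligand list with ATO (2.05 and 2.36), while Pirb and Itgb3 lie at -1.21 and -1.89.

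No tested gene beside the members on the chromosome was called with either drug. Over all tested genes 14.7% were called in either direction with ATO and 5.6% with ATRA, so for so few genes this says little. Ralgps1, whose introns hold Angptl2 on the other strand, had 165 ± 36.1 scaled reads in controls, 86.9 ± 31.4 with ATRA and 89.5 ± 43.6 with ATO (limma adjusted p = 0.197 and 0.097). Ralgps1 and Angptl2 share 0 exonic bases. Since no strand setting is stated, reads from Ralgps1 introns that fall on Angptl2 exons cannot be told from Angptl2 reads. Znhit3 and Usp32 beside Car4 had log2 differences of 0.58 and -0.81 with ATO (limma adjusted p = 0.0914 and 0.111). Kntc1 beside Hcar2 had -0.62 (0.297), and Zbtb34 beside Angptl2 -0.73 (0.111). Garnl3, on the other side of Angptl2, was below the filter with 68 reads in all, as was Hcar1 beside Hcar2 with 12.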

How the data were processed

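RNA sequencing of 9 libraries (control, ATRA and ATO, n = 3 each, grouped by their titles) was used. Read quality control (FastQC), trimming (cutadapt), alignment to mm9 (STAR, unique hits only), gene counting (HTSeq-count) and testing (DESeq2) were done by the authors. Tool versions and the annotation used were not given in the sources used here. The deposited signal values were read counts that the authors divided by a size factor per library, separately in an ATRA and an ATO table with the same controls. The deposited tables also held the authors' log2 fold changes, their standard errors and test scores, and p-values, none of which was used.

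Dividing by the smallest step of a column gave whole reads for 100% of values above 0 (tolerance 0.001), and both tables held identical control reads. The 9 libraries were rescaled together by median-of-ratios factors (0.609 to 1.38). Entries with symbols turned into dates (27, at most 0.173% of reads) were left out. Genes with at least 10 scaled reads in at least 3 libraries were tested (12101). Values plus 0.5 were log2-transformed, which understates changes of low genes, then modelled as 3 groups in limma 3.58.1 under R 4.3.3 with an intensity trend. Benjamini-Hochberg adjusted p under 0.05 with a fold change over 1.5 made a call. The script was tested on simulated data. The median SE of a log2 change was 0.23. The members, lists and settings were chosen with earlier results of these data known. The naming rule took the members, the 3 genes most like each, up to 6 called genes of each list (or the 2 most expressed), and chromosomal neighbors. Car15, Car2, Gnai2, Itga5, Itgb1, Adgre1, S100a8, S100a9 and C1q genes were named after their values were seen. Exon lengths were matched for 90.9% of genes, and promoters came from RefSeq (GRCm38.p6). Alternatives were other pseudocounts, filters, scalings, DESeq2 1.42.0 and edgeR 4.0.16 on recovered reads, a replicate block, removal of the length trend, fits of 2 groups, the unadjusted p and leaving out each library.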

Additional observations from a re-analysis of the deposited data

How the results depend on the processing

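All 3 members kept their direction in both comparisons with control and in ATO against ATRA under every alternative run. With ATO their log2 values ran from 2.95 to 3.41 (Hcar2), 1.95 to 2.21 (Car4) and 1.86 to 2.84 (Angptl2) when a library was left out. In ATO against ATRA they ran from 1.55 to 2.14, 0.10 to 0.78 and 1.53 to 2.04. With ATRA they ran from 1.03 to 1.62 (Hcar2), 1.28 to 1.95 (Car4) and 0.081 to 1.06 (Angptl2). Scaling to library totals put Car4 at 1.85 with ATO and its control mean at 924.5 scaled reads. The Hcar2 call with ATRA was lost at a mean of at least 50 (log2 1.28, limma adjusted p = 0.059), with library totals (1.22, 0.0512) and with only the 2 groups fitted (1.29, 0.0513). It was kept by edgeR (1.32, 0.0293) and DESeq2 (1.35, 0.00157).

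Genes called with ATO numbered 742 higher and 1035 lower, and with ATRA 162 and 516. At the unadjusted p they were 1165 and 1944, and 552 and 1102. A mean of at least 50 gave 555 lower with ATO, and 79 and 185 with ATRA. Library totals gave 294 higher and only the 2 groups 356 higher with ATO. With ATRA, DESeq2 gave 263 and 812, and no filter 902 lower. Leaving out a library gave 88 to 1473 higher and 163 to 1546 lower with ATO, and 23 to 295 higher and 141 to 572 lower with ATRA, with the fewest each time without control 3.

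Libraries share numbers between groups, but deviations of same-numbered libraries correlated from -0.38 to 0.33, over 0.1 in 5 of 9 pairs, so the numbers were not taken as pairs. With the replicate block 742 genes were called higher and 1239 lower with ATO and 170 and 550 with ATRA, the log2 values of the members were the same, and the Hcar2 and Car4 calls with ATRA held (limma adjusted p = 0.00984 and 0.00595), while that of Slc26a6 with ATO did not (0.0518). Depth limits Hcar2 and Angptl2 most, with as few as 52 and 35 reads in a control.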
